A study of Homo sapiens with 4 samples.

Results

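The genes described here are 31 members of the program that sterol regulatory element-binding proteins (SREBPs) control in the making of cholesterol and fatty acids. They were chosen by gene name and all 31 were found among the 16717 entries of the deposited table. They comprise 18 sterol enzymes, which lead from acetyl-CoA through mevalonate to cholesterol, 7 fatty acid enzymes, and 6 genes of regulation and sterol transport. RNA-Seq was performed on 2 libraries of Cal-62 cells treated with niraparib, which blocks the PARP1 and PARP2 enzymes that sense DNA breaks, and 2 libraries of the same cells treated with DMSO, the vehicle. Cal-62 is a human line from an anaplastic thyroid carcinoma, so all results come from 1 line, and the concentration and time of treatment for these libraries are not given in the sources used here. No source states that the replicates were separate cultures, so the p-values measure only the spread between these libraries. Values are TPM, a share of all transcripts that is adjusted for gene length and carries no read depth.

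SREBPs are transcription factors that are held in the endoplasmic reticulum as inactive precursors. When membrane sterol is low, the escort protein SCAP carries them to the Golgi, where proteases release the active factor. When sterol is plentiful, the INSIG proteins hold SCAP back. SREBF2 encodes the form best known for driving sterol genes, and SREBF1 encodes forms best known for driving fatty acid genes, with overlap between them. INSIG1 is itself a target of this program.

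Of the thyroid follicular markers, PAX8 did not pass the test. It was at 206.68 and 195.54 TPM in niraparib libraries and at 189.14 and 191.41 TPM in DMSO libraries. FOXE1 rose (4.61 and 3.63 TPM in niraparib libraries, against 1.95 and 2.21 TPM in DMSO libraries). The FOXE1 call was not kept when a library was left out, with log2 fold changes of 0.59 to 0.87. After adjustment for GC content, described below, FOXE1 was at 0.48 and, with centring, 0.40, and was not called. PAX8 was called lower only from GC-adjusted and centred values (log2 fold change -0.18). TG, TSHR, SLC5A5 and NKX2-1 were not analysed here. Of the epithelial keratins, KRT19 rose (638.69 and 641.17 TPM in niraparib libraries, against 330.36 and 341.32 TPM in DMSO libraries). KRT8 rose by 0.14 and KRT18 fell by 0.11 on the log2 scale, and KRT7 did not pass the test. These 3 were between 812.49 and 1301.45 TPM in all 4 libraries. The KRT18 call was not kept when a library was left out. From GC-adjusted values 1 of the 5 epithelial markers tested was higher and 2 were lower, or 3 with centring. With either scaling between libraries 1 was higher, so the rises of KRT8 and KRT19 were not both kept in these fits. COL1A1 and CD68, which also mark fibroblasts and macrophages, rose (142.51 and 136.94 against 63.08 and 64.09 TPM, and 31.28 and 36.27 against 20.07 and 19.58 TPM, niraparib against DMSO). PDGFRB, another fibroblast marker, was below the minimum level for testing, at 0.03 and 0.06 against 0.05 and 1.21 TPM. Of 3 mesenchymal markers FN1 rose by 0.66 and VIM by 0.18 on the log2 scale, and CDH2 did not pass the test. The epithelial marker EPCAM did not pass it either, and CDH1 was below the minimum level. Of 4 leukocyte markers 2 were measured and both rose, CD68 and CD14 (4.82 and 4.43 against 2.79 and 3.07 TPM). CD14 was close to the threshold (limma adjusted p = 0.0481). Only 1 of the 2 was called with either scaling, without a filter, with the replicate number as a block or from GC-adjusted values. Nor were both called when a library was left out. The leukocyte, endothelial and fibroblast markers PTPRC, CD3E, PECAM1, VWF, PDGFRA and DCN were not analysed here, and the part of other cells in the results was not tested.

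INSIG1, which holds the SREBP precursors back, and enzymes along the sterol pathway such as HMGCS1, IDI1 and DHCR7 fell after niraparib, while SREBF1 and the sterol reductase TM7SF2 rose. Of the 31 members, 9 fell and 2 rose, and the other 20 did not pass the test (limma on log2(TPM + 1), p adjusted by Benjamini-Hochberg over 13377 genes, threshold 0.05). In the same test 11.7% of all genes fell and 20.8% rose. With median-of-ratios scaling between libraries 11 members fell and 2 rose, against 16.7% and 14.9% of all genes. The count of members that fell was 6 without niraparib replicate 1 and 7 without niraparib replicate 2, where 5.02% and 8.66% of all genes fell. It was 4 when either DMSO replicate 1 or DMSO replicate 2 was left out, where 4.69% and 5.4% of all genes fell. None of the members rose without niraparib replicate 1, niraparib replicate 2 or DMSO replicate 1, where 8.95%, 12.1% and 10.4% of all genes rose, and 2 rose without DMSO replicate 2, where 11.4% did. Among the 18 sterol enzymes, 8 fell and 1 rose, and their median log2 fold change was -0.17. Among the 7 fatty acid enzymes none passed the test, and their median was 0.083. The median of all genes tested was 0.072. Of the 31 members, 14 had both niraparib libraries below both DMSO libraries, as did 29% of all genes, and 10 had both above, as did 41.9% of all genes.

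The plot of all members by library shows these values in the order of the pathway.

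**Figure D1:**
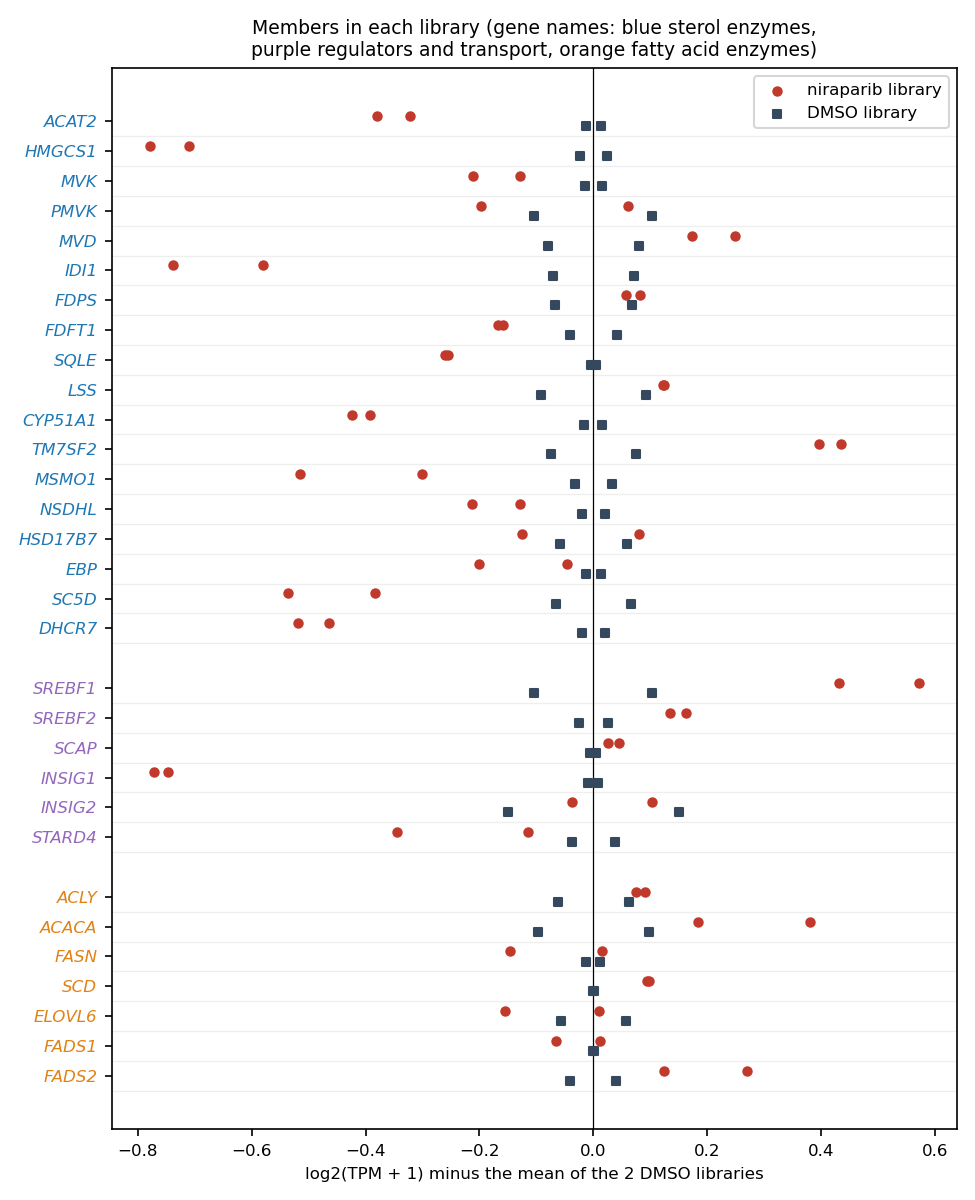
Level of each member in every library, as log2(TPM + 1) minus the mean of the 2 DMSO libraries (horizontal axis), with sterol enzymes in pathway order at the top, regulators and transport in the middle and fatty acid enzymes at the bottom; circles are niraparib libraries and squares DMSO libraries. INSIG1, HMGCS1 and IDI1 lie farthest to the left and SREBF1 and TM7SF2 farthest to the right. Most fatty acid enzymes lie near 0, with ACACA and FADS2 to the right of it.

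INSIG1 had the lowest log2 fold change of the 31 members. In GRCh37 it spans bases 155089486 to 155101945 of chromosome 7 (plus strand). INSIG1 was at 19.69 and 20.06 TPM in niraparib libraries, against 34.55 and 34.12 TPM in DMSO libraries. Both groups were tight and far from overlapping. The log2 fold change was -0.76 (standard error, SE, 0.073, limma, adjusted p = 0.00355), on the log2(TPM + 1) scale that is used throughout and that understates the change of low genes.

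HMGCS1, which makes HMG-CoA, the last precursor before mevalonate, spans bases 43287572 to 43313614 of chromosome 5 (minus strand). It was at 27.55 and 28.92 TPM in niraparib libraries, against 47.17 and 48.75 TPM in DMSO libraries, and the groups did not overlap. Its log2 fold change was -0.74 (SE 0.070, limma, adjusted p = 0.00334). IDI1, the isomerase that turns isopentenyl units into their reactive form, was at 27.79 and 31.12 TPM in niraparib libraries, against 49.45 and 44.68 TPM in DMSO libraries. For IDI1 the log2 fold change was -0.66 (SE 0.092, limma, adjusted p = 0.0077). DHCR7, the reductase that turns 7-dehydrocholesterol into cholesterol at the end of the pathway, was at 53.45 and 55.52 TPM in niraparib libraries, against 75.93 and 78.04 TPM in DMSO libraries. For DHCR7 it was -0.49 (SE 0.058, limma, adjusted p = 0.00531). INSIG1, HMGCS1, IDI1 and DHCR7 were the 4 called members, of 11, whose calls held in all 4 fits that left out a library, in both scalings between libraries and in all 3 GC-adjusted fits. An RNA annotated on the opposite strand covers 37.7% of the exon bases of HMGCS1, and IDI2-AS1, listed at 0.2 and 0.16 TPM in niraparib libraries against 0.46 and 0.09 TPM in DMSO libraries, covers 15% of those of IDI1. The 4 genes lie on different chromosomes (7, 5, 10 and 11) and their products act at the start, the middle and the end of the pathway and in its control.

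**Figure D2:**
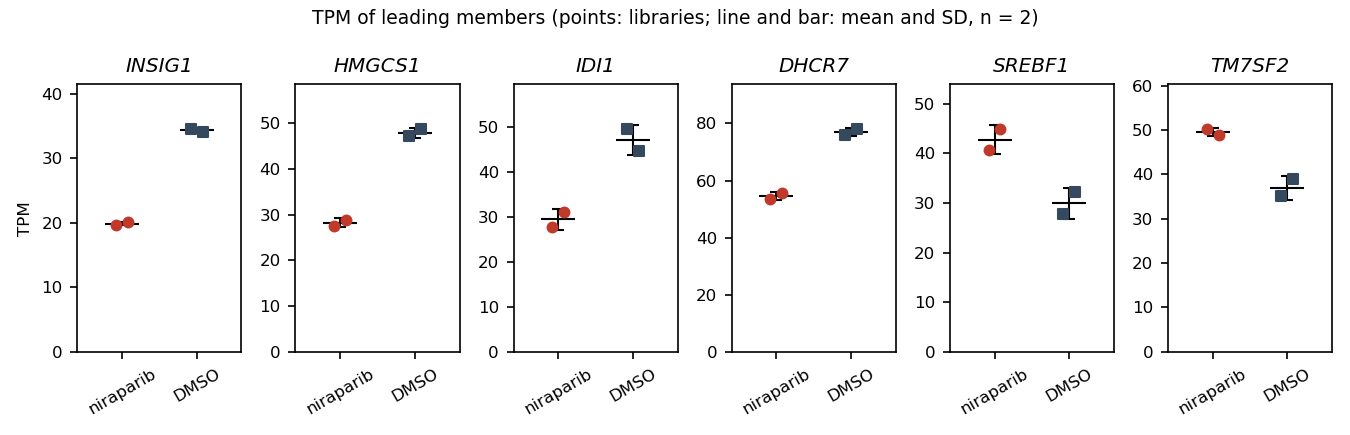
TPM (vertical axis, from 0) of 6 members past the threshold, with niraparib libraries on the left of each panel and DMSO libraries on the right; points are libraries, and the line and bar give the mean and SD (n = 2). INSIG1, HMGCS1, IDI1 and DHCR7 are lower with niraparib and SREBF1 and TM7SF2 are higher, with no overlap between the groups in any panel.

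The promoters of these 4 genes are shown with those of the genes for both SREBPs, since several sterol genes fell and the factors bind close to the start of their targets. Sequences are the 250 bases before the RefSeq start in GRCh38.p14, written 5′ to 3′ on the strand of the gene. Capitals mark matches on either strand to the sterol regulatory element TCACNCCAC, the E-box CACGTG, the NF-Y box CCAAT and the Sp1 box GGGCGG. No match to a motif overlapped a match to another motif in the windows taken for the members, and positions are counted back from -1, the base before the start. INSIG1 is at chr7:155297628-155297877 on the plus strand, HMGCS1 at chr5:43313413-43313662, IDI1 at chr10:1048887-1049136 and DHCR7 at chr11:71448394-71448643, all 3 on the minus strand. SREBF2 is at chr22:41832855-41833104 on the plus strand and SREBF1 at chr17:17836987-17837236 on the minus strand.
INSIG1: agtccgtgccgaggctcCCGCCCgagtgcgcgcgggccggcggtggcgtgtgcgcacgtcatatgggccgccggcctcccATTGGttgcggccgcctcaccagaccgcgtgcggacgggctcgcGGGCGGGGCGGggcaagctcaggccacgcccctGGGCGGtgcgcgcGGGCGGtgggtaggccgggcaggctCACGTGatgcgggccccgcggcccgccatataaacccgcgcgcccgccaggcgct
HMGCS1: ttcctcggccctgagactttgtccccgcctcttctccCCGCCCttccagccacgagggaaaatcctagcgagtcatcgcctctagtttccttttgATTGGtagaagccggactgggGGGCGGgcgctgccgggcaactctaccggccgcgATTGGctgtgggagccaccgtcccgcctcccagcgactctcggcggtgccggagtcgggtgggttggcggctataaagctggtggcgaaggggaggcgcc
IDI1: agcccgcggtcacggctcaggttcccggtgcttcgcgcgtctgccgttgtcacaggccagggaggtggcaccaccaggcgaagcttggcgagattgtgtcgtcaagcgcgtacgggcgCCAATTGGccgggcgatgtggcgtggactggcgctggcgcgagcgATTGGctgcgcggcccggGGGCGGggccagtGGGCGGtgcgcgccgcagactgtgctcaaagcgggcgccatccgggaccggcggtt
DHCR7: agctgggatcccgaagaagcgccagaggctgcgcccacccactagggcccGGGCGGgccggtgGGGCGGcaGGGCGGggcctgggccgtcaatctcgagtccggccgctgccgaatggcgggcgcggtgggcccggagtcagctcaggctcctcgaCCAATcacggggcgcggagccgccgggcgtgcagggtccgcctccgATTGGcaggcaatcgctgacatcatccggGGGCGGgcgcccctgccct
SREBF2: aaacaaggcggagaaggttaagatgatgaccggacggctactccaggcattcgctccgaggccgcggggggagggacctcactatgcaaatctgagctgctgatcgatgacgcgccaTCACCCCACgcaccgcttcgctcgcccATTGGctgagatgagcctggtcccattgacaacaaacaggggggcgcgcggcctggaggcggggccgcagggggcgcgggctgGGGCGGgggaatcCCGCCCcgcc
SREBF1: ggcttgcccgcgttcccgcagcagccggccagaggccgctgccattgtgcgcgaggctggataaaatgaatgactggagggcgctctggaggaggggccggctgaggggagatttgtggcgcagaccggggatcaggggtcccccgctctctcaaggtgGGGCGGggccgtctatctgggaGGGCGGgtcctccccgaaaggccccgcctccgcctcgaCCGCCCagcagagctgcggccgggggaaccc
The table of promoters held 27 of the 31 members. ACAT2, FDFT1, SQLE and FASN were not in it. CCAAT was in the promoters of 13 of 15 sterol enzymes and 3 of 6 fatty acid enzymes, against 41.5% of the 9850 tested genes in the same table and 32% of all 35116 windows of this length. HMGCS1 holds it at -155 and -100 and INSIG1 at -170, while the SREBF1 window holds none. Of the 9 members that fell, 7 were in the table and 6 of them held CCAAT, as did 12 of the 18 members that passed no test. TCACNCCAC was in the window of 1 member, SREBF2, at -133, and in 1.16% of tested genes. CACGTG was in those of SC5D, SCAP and INSIG1, at -55 in INSIG1, and in 11.4% of tested genes. GGGCGG was in those of 14 of 15 sterol enzymes, all 6 regulators and transport genes and all 6 fatty acid enzymes, and in 76.2% of tested genes. These matches are letters in a window and were not tested for binding.

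In the mevalonate arm, ACAT2 opens the pathway by joining acetyl-CoA units and fell, with 61.56 and 59.05 TPM in niraparib libraries, against 76.45 and 77.93 TPM in DMSO libraries. The log2 fold change of ACAT2 was -0.35 (SE 0.057, limma, adjusted p = 0.011). ACAT2 was not called without DMSO replicate 1 (adjusted p = 0.0523) and without DMSO replicate 2 (0.0591). ACAT2 shares 17.2% of its exon bases with TCP1, a chaperonin gene on the opposite strand, which fell too (118 and 127.74 TPM against 190.02 and 166.78 TPM, niraparib against DMSO). The sources used here do not say that counting used the strand, so reads in the shared part cannot be told apart. The kinases of mevalonate, MVK and PMVK, had log2 fold changes of -0.17 and -0.068 and did not pass the test. MVD, which makes isopentenyl diphosphate, averaged 58.8 ± 2.21 TPM in niraparib libraries and 50.75 ± 4.02 TPM in DMSO libraries (SD, n = 2 each), and was not called (log2 fold change 0.21, limma adjusted p = 0.0967). FDPS, which builds farnesyl diphosphate, was the most abundant member in TPM, with 252.33 and 256.9 TPM in niraparib libraries and 231.4 and 254.3 TPM in DMSO libraries. The groups overlapped, and the 95% interval of its log2 fold change ran from -0.073 to 0.21. IDI1 passed the test and FDPS, which acts in the next step, did not, but the difference between them was not tested.

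In the sterol-committed arm, FDFT1, the squalene synthase, was at 164.98 and 166.03 TPM in niraparib libraries, against 180.19 and 190.98 TPM in DMSO libraries. The groups did not overlap, but the gene, with a log2 fold change of -0.16, was not called (SE 0.048, limma, adjusted p = 0.0525). SQLE, the oxygen-dependent epoxidase that is often rate-limiting here, was at 52.5 and 52.29 TPM in niraparib libraries, against 62.65 and 63.1 TPM in DMSO libraries. It fell by 0.26 on the log2 scale (SE 0.056, limma, adjusted p = 0.024), which did not hold without niraparib replicate 1 (adjusted p = 0.0757), niraparib replicate 2 (0.0654), DMSO replicate 1 (0.109) or DMSO replicate 2 (0.114). LSS, which closes the sterol rings, averaged 13.74 ± 0.0212 TPM in niraparib libraries and 12.56 ± 1.22 TPM in DMSO libraries (SD, n = 2 each), and was not called.

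CYP51A1, the demethylase of lanosterol, was lower, with a mean of 34.52 ± 0.573 TPM in niraparib libraries against 46.13 ± 0.735 TPM in DMSO libraries (SD, n = 2 each), a log2 difference of -0.41 (SE 0.065, limma, adjusted p = 0.0104). This did not hold without DMSO replicate 1 (adjusted p = 0.0515) and without DMSO replicate 2 (0.0583). Another annotated gene on the same strand shares 68.2% of its exon bases, so the reads of the shared part cannot be told apart. MSMO1, which oxidises the methyl groups of the sterol ring, was at 23.37 and 27.28 TPM in niraparib libraries, against 34.65 and 33.06 TPM in DMSO libraries, a log2 difference of -0.41 (SE 0.098, limma, adjusted p = 0.0311). This did not hold without niraparib replicate 1 (adjusted p = 0.0924), DMSO replicate 1 (0.126) or DMSO replicate 2 (0.0863). SC5D, the desaturase before the DHCR7 step, was at 8.57 and 7.61 TPM in niraparib libraries, against 10.92 and 12.07 TPM in DMSO libraries, a log2 difference of -0.46 (SE 0.12, limma, adjusted p = 0.0384). It was no longer called in any of the fits without a library, with adjusted p of 0.0769 and 0.117 without niraparib replicates 1 and 2, and 0.094 and 0.166 without DMSO replicates 1 and 2.

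TM7SF2, a sterol reductase that acts after CYP51A1, was the only sterol enzyme that rose. It was at 50.25 and 48.91 TPM in niraparib libraries, against 35.04 and 38.94 TPM in DMSO libraries, a log2 difference of 0.41 (SE 0.078, limma, adjusted p = 0.0159). This did not hold without niraparib replicate 1 (adjusted p = 0.0752), niraparib replicate 2 (0.054) or DMSO replicate 1 (0.0742), nor from GC-adjusted values, where the log2 fold change of TM7SF2 was 0.12 and, when centred, 0.046 (adjusted p = 0.236 and 0.636). The dehydrogenase NSDHL, the isomerase EBP and the reductase HSD17B7 had log2 fold changes of -0.17, -0.12 and -0.023 and did not pass the test. For EBP both niraparib libraries (128.04 and 114.89 TPM) were below both DMSO libraries (133.45 and 130.99 TPM), whereas the groups of HSD17B7 overlapped. Another annotated gene on the same strand shares 36.4% of the exon bases of EBP, so reads of that part cannot be told apart. HSD17B7 has near-identical pseudogene copies, so its counting is uncertain. Summed over the 18 sterol enzymes, niraparib libraries held 1065 and 1053 TPM, against 1153 and 1202 TPM in DMSO libraries, a ratio of 0.899.

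Neither SREBF1 nor SREBF2 was lower in the deposited values. SREBF1 was at 40.68 and 44.9 TPM in niraparib libraries, against 27.76 and 32.2 TPM in DMSO libraries, with no overlap. It rose by 0.50 on the log2 scale (SE 0.10, limma, adjusted p = 0.0192), which did not hold without niraparib replicate 1 (adjusted p = 0.057), niraparib replicate 2 (0.0778) or DMSO replicate 1 (0.0741). SREBF2 was at 75.59 and 74.07 TPM in niraparib libraries, against 66.2 and 68.63 TPM in DMSO libraries. Its log2 fold change of 0.15 had a 95% interval from 0.0080 to 0.29 and did not pass the test after adjustment (limma adjusted p = 0.0974). SCAP, the escort, was at 26.32 and 25.96 TPM in niraparib libraries, against 25.57 and 25.38 TPM in DMSO libraries, a log2 difference of 0.036, which was not called (95% interval -0.15 to 0.22). From GC-adjusted and centred values SCAP was lower and passed limma's test (log2 fold change -0.30, adjusted p = 0.0328), and it was at -0.22, uncalled, without centring.

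INSIG2, the other retention protein, was at 5.14 and 5.77 TPM in niraparib libraries, against 6 and 4.68 TPM in DMSO libraries. The niraparib values lay between the DMSO values, and the log2 fold change was 0.032 with a 95% interval from -0.38 to 0.44. The INSIG1 interval, -0.94 to -0.57, did not meet that of INSIG2, although the difference between the paralogs was not tested. STARD4, a carrier of sterol between membranes, was at 14.46 and 12.19 TPM in niraparib libraries, against 15.32 and 16.19 TPM in DMSO libraries, and did not pass the test (log2 fold change -0.23, limma adjusted p = 0.183).

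None of the 7 fatty acid enzymes passed the test. ACLY, which cleaves citrate to acetyl-CoA and so feeds both arms, was at 149.92 and 151.6 TPM in niraparib libraries, against 136.2 and 148.67 TPM in DMSO libraries. ACACA, the carboxylase that makes malonyl-CoA, was at 37.76 and 32.83 TPM in niraparib libraries, against 26.85 and 30.88 TPM in DMSO libraries, without overlap. Its log2 fold change of 0.28 was the highest of the 7 (95% interval 0.0066 to 0.56, limma adjusted p = 0.105).

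FASN, the synthase that assembles palmitate, was at 80.45 and 71.84 TPM in niraparib libraries, against 80.33 and 78.95 TPM in DMSO libraries. The groups overlapped, and the log2 fold change was -0.066 with a 95% interval from -0.25 to 0.11. SCD, which makes monounsaturated fatty acids, was at 112.89 and 112.64 TPM in niraparib libraries, against 105.58 and 105.43 TPM in DMSO libraries. The replicates of each group were nearly equal, without overlap between the groups, and the gene, with a log2 fold change of 0.095, was not called (95% interval -0.022 to 0.21). ELOVL6, an elongase, and FADS1 and FADS2, desaturases of polyunsaturated fatty acids, had log2 fold changes of -0.072, -0.028 and 0.20. FADS1 and FADS2 lie on opposite strands of chromosome 11 and share 490 exon bases, so their values are not fully separate. Summed over the 7 enzymes, niraparib libraries held 554.6 and 537.1 TPM, against 507.9 and 527.6 TPM in DMSO libraries, a ratio of 1.05. A difference between the arms was not tested as such, because the members are not replicates.

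**Figure D3:**
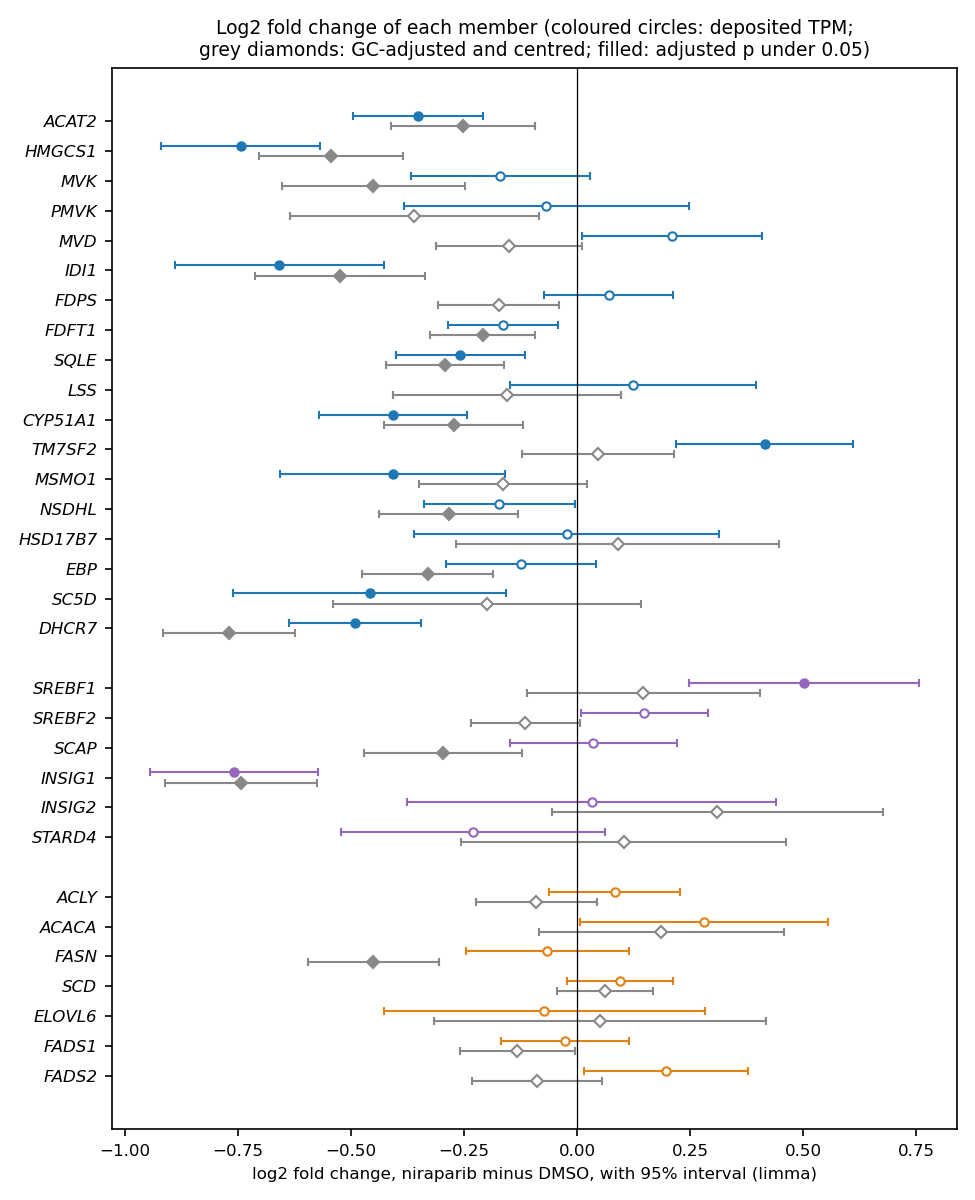
Log2 fold change of each member, niraparib minus DMSO (horizontal axis), with its 95% limma interval; coloured circles are from deposited TPM (blue sterol enzymes, purple regulators and transport, orange fatty acid enzymes), grey diamonds are GC-adjusted and centred values, and filled symbols have an adjusted p under 0.05. INSIG1, HMGCS1, IDI1 and DHCR7 stay filled and to the left of 0 in both, while SREBF1 and TM7SF2 lose their call after adjustment.

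Across all genes the log2 fold change was higher for genes with more GC in the longest annotated transcript (Spearman's rho 0.51 over 12513 genes, which share the 4 libraries). Over the 18 sterol enzymes the same rho was 0.73. The 9 members that fell had a median GC content of 41.1% (36.9 to 58.1%), and the 2 that rose had 63.2 and 64.2%. The 12513 tested genes with a GC value had a median of 48.1%. When the trend was removed from each library, 8 members were lower and none was higher, against 9.94% and 16.3% of all genes, and when each library was also centred 13 were lower and none higher, against 14.5% and 12% of all genes. INSIG1 then had a log2 fold change of -0.67 (adjusted p = 0.00459) and -0.74 (0.00324), HMGCS1 of -0.47 (0.00811) and -0.55 (0.00541), IDI1 of -0.45 (0.0152) and -0.52 (0.00881), and DHCR7, whose GC content is 58.1%, of -0.70 (0.00379) and -0.77 (0.00227), in limma without and with centring.

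Of the other 7 called members, SQLE was called in both forms (adjusted p = 0.0345 and 0.0152), but not when the adjustment was run with the replicate number as a block (0.0586). SREBF1 had GC-adjusted log2 fold changes of 0.22 and 0.15, without and with centring (limma adjusted p = 0.175 and 0.33), and like TM7SF2 was called in neither form. MSMO1 (adjusted p = 0.414 and 0.156) and SC5D (0.508 and 0.318) were not called in either form, and ACAT2 (0.085 and 0.0391) and CYP51A1 (0.0641 and 0.0288) were called only with centring. Conversely, MVK (log2 fold change -0.38 and -0.45), EBP (-0.26 and -0.33) and FASN (-0.38 and -0.45) were lower in both forms, and FDFT1, NSDHL and SCAP were lower with centring only (adjusted p = 0.0277, 0.026 and 0.0328). FASN, with 65.3% GC, therefore passed limma's test only after adjustment (adjusted p = 0.0108 and 0.00669), so the count of no called fatty acid enzyme holds for the deposited values and not for the adjusted ones. The sterol median stayed below 0 in both forms (-0.19 and -0.26), where the median of all genes was 0.078 and 0.0039.

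**Figure D4:**
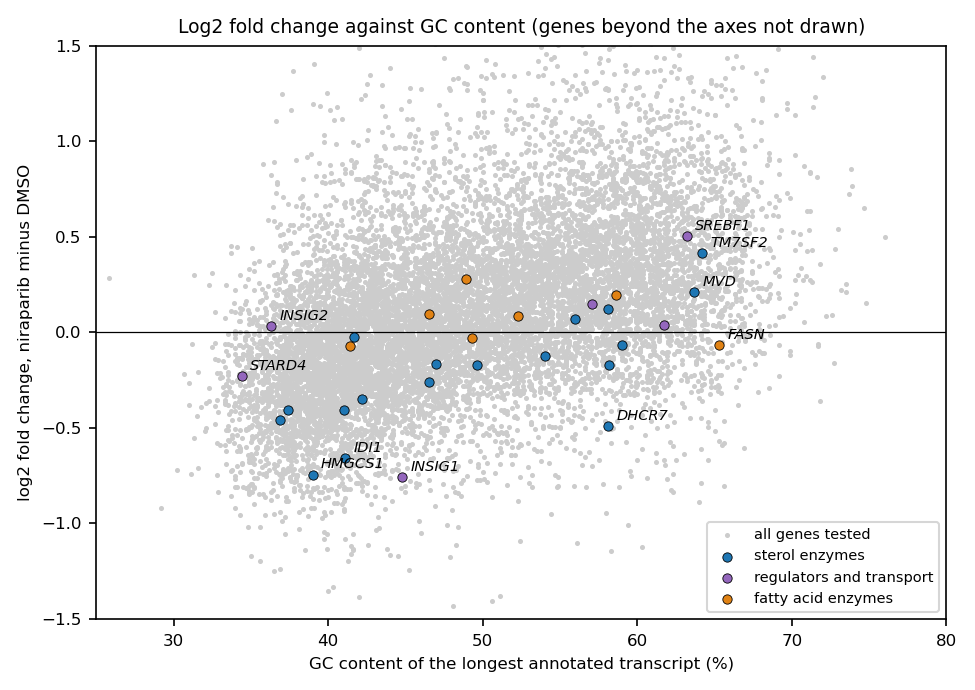
Log2 fold change, niraparib minus DMSO (vertical axis), against the GC content of the longest annotated transcript in percent (horizontal axis). Grey points are the 12513 tested genes with a GC value, less those beyond the axes, which are not drawn. Coloured points are the members. The members follow the rise of the grey points from left to right, with DHCR7 and FASN below most genes of their GC content.

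Genes around the program were counted in lists named by function. Of 12 genes of SREBP processing and degradation, 1 rose, 1 fell and 10 did not pass the test, shares of 8.33% each, against 20.8% of all genes that rose and 11.7% that fell. VCP, which extracts proteins from the membrane of the endoplasmic reticulum, fell by 0.20 (limma adjusted p = 0.0155). MBTPS1 and MBTPS2, the proteases that release SREBPs, had log2 fold changes of 0.18 and 0.018 and did not pass the test. VCP lost its call in limma without niraparib replicate 1 (adjusted p = 0.062), DMSO replicate 1 (0.0842) or DMSO replicate 2 (0.0669).

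Of 16 genes of other mevalonate branches and sterol cofactors, 2 fell and 2 rose, shares of 12.5% each, against 11.7% of all genes that fell and 20.8% that rose. PDSS1, which makes the tail of coenzyme Q from isoprenoid units, was at 5.2 and 6.07 TPM in niraparib libraries, against 13.33 and 13.77 TPM in DMSO libraries. Its log2 fold change of -1.14 (SE 0.12, limma, adjusted p = 0.00434) was lower than that of any of the 31 members. NUS1, a subunit of the enzyme that makes dolichol, fell by 0.74 (limma adjusted p = 0.00626). Both PDSS1 and NUS1 held their calls in every fit without a library and in the GC-adjusted fits. PDSS2, the partner of PDSS1, and DHDDS, the partner of NUS1, had log2 fold changes of 0.083 and 0.073 and did not pass the test. POR and CYB5R3, which pass electrons to sterol enzymes, rose by 0.38 and 0.31, calls that were lost from GC-adjusted values (limma adjusted p = 0.128 and 0.253). POR was also not called without niraparib replicate 1 (adjusted p = 0.0743), niraparib replicate 2 (0.0635) or DMSO replicate 1 (0.072), nor was CYB5R3 without niraparib replicate 1 (0.051) or DMSO replicate 2 (0.0538).

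Of 17 other fatty acid and acyl-CoA genes, 5 rose, 2 fell, 9 did not pass the test and 1, ACACB, was below the minimum level. Of the 16 tested, 31.2% rose and 12.5% fell, against 20.8% and 11.7% of all genes. ACSS2, which makes acetyl-CoA from acetate, was at 41.31 and 38.37 TPM in niraparib libraries, against 23.85 and 24.65 TPM in DMSO libraries, a log2 difference of 0.69 (SE 0.077, limma, adjusted p = 0.00476). TECR, the reductase of fatty acid elongation, rose by 0.38 and SLC25A1, the citrate carrier of mitochondria, by 0.44. ME1, which makes NADPH, was at 5.88 and 5.31 TPM in niraparib libraries, against 9.69 and 9.78 TPM in DMSO libraries, a log2 difference of -0.70 (limma adjusted p = 0.0121). ACSS2 and TECR held their calls from GC-adjusted values, whereas SLC25A1 (adjusted p = 0.102) and ME1 (0.052) did not, and ME1 was not called without DMSO replicate 1 (0.058) or DMSO replicate 2 (0.0563).

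Of 7 genes of sterol uptake and storage, NPC2, which binds cholesterol in lysosomes, and STARD3 rose, and SCARB1, a lipoprotein receptor, fell, with log2 fold changes of 0.35, 0.33 and -0.57 (limma adjusted p = 0.00334, 0.0397 and 0.0159). That is 28.6% that rose and 14.3% that fell, against 20.8% and 11.7% of all genes. STARD3 lost its call from GC-adjusted values (adjusted p = 0.294) and without niraparib replicate 1 (0.127), DMSO replicate 1 (0.153) or DMSO replicate 2 (0.077), and SCARB1 without niraparib replicate 1 (0.0686), niraparib replicate 2 (0.0668) or DMSO replicate 2 (0.0554). Of 7 targets of LXR, the receptor for oxidised sterols that also drives SREBF1, 4 rose, none fell, 2 did not pass the test and 1, ABCA1, was below the minimum level. The 4 are 66.7% of the 6 tested, against 20.8% of all genes. ABCG1 passed the minimum of 1 TPM only through niraparib libraries and SMPDL3A only through DMSO libraries. The share therefore rests in part on genes kept through the group where they are high. With 1 TPM required in every library 3 of the 7 were tested and 2 rose, against 21.7% of all genes. APOE, the lipoprotein component, was at 23.18 and 26.11 TPM in niraparib libraries, against 3.91 and 4.76 TPM in DMSO libraries (log2 fold change 2.27). PLTP, a phospholipid carrier, was at 54.47 and 52.45 TPM in niraparib libraries, against 28.74 and 28.77 TPM in DMSO libraries (log2 fold change 0.87). ABCG1, a sterol exporter, was at 1.09 and 1.54 TPM in niraparib libraries, against 0.18 and 0.2 TPM in DMSO libraries, and MYLIP, which degrades lipoprotein receptors, at 3.04 and 2.32 TPM, against 0.89 and 1.13 TPM. The calls of ABCG1 (adjusted p = 0.067 to 0.0986) and MYLIP (0.0537 to 0.114) were lost in every limma fit without a library, while APOE and PLTP held theirs. ABCA1 was listed at 0.97 and 1.11 TPM in niraparib libraries, against 0.23 and 0.45 TPM in DMSO libraries. In bulk RNA fewer cells of a kind and less RNA per cell cannot be told apart, and TPM gives shares of the RNA and not amounts per cell.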

How the data were processed

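RNA-Seq of Cal-62 cells comprised 2 niraparib and 2 DMSO libraries, grouped by the treatment in their labels. The authors deposited TPM values, scaled within libraries, under a table name that says counts. The methods give Trim Galore for trimming and STAR with hg19 for alignment. The notes of the submitters on processing name Trim Galore, HISAT2, hg38 and mm10. The tool and annotation behind the TPM are not given in the sources used here. Read counts cannot be had from TPM, so depth is unknown and no counting interval is given. Precision rests on how far replicate libraries differ. In all, 12853 to 13336 genes reached 1 TPM in each.

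A gene was kept when 2 or more libraries reached 1 TPM, which left 13377. Their log2(TPM + 1), niraparib minus DMSO, entered limma 3.58.1 in R 4.3.3 (trend and robust priors), two-sided. Benjamini-Hochberg adjustment covered every gene kept, and 0.05 was the threshold. All 31 members passed the minimum. The GC content and GRCh37 coordinates are those of GENCODE release 44 lifted to GRCh37, which matched 88.8% of the table entries by symbol or synonym. To adjust for GC content, a loess curve (span 0.5) was drawn per library through the deviations from gene means, ordered by GC, and was subtracted. Promoters are from RefSeq (GRCh38.p14). Where a gene had several, the window printed is that whose bases after the start occur in more of its annotated transcripts than those of its other windows, or the one listed first where they tie. Such transcripts can be few: they numbered 1 of 6 for IDI1, 1 of 9 for SREBF2 and 3 of 24 for SREBF1.

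The members, lists and tests were chosen with earlier results of these data known, and the lists do not cover every gene of the pathways. All 31 members are named, with values of each library for those past the threshold at 1.5-fold or more, for the regulators and for branch enzymes. Up to 4 genes of each further list were to be named by smallest p, and others that are named were chosen after their values were seen. The alternatives were 2 scalings, 2 filters, pseudocounts of 0.1 and 0.5, plain priors, the replicate number as a block, each library left out, 3 GC adjustments and a minimum of 1.5-fold. The fit was also run on simulated data with independent noise of the kind it assumes. That run does not test whether the replicates are independent. Some genes of the lists are not reported here.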

Additional observations from a re-analysis of the deposited data

How the results depend on the processing

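The calls of INSIG1, HMGCS1, IDI1 and DHCR7 held under every alternative except the minimum of 1.5-fold, which DHCR7 did not meet. Members called higher numbered 0 in the 3 GC-adjusted fits, where 12% to 16.3% of all genes were higher. They also numbered 0 with the 1.5-fold minimum, where 10.5% of all genes were higher. Members called lower numbered 3 with the 1.5-fold minimum and 4 to 7 with a library left out, where 3.59% and 4.69% to 8.66% of all genes were lower. The sterol median was -0.27 with median-of-ratios scaling, -0.22 with upper-quartile scaling, -0.26 with GC-adjusted and centred values, and -0.21 to -0.17 with a library left out. The fatty acid median was -0.018, 0.029 and -0.089 in those 3 fits, -0.015 in the GC-adjusted fit with or without the block, and 0.020 to 0.094 with a library left out. The median of all genes was -0.018, 0.024 and 0.0039 in the same 3 fits and 0.078 in the GC-adjusted fit, against 0.072 from the deposited values. The arm medians of these fits therefore include a shift of all genes. With the replicate number as a block 7 members were lower and 2 higher, against 10% and 17.9% of all genes. SQLE (adjusted p = 0.0502) and SC5D (0.0621) were lost in that limma fit. The deviations of same-numbered libraries correlated at -0.015, so no large effect shared by libraries of the same number was seen. This value cannot tell whether the libraries were handled in pairs. SQLE and MSMO1 were lost without trend and robust priors (adjusted p = 0.0688 and 0.0643), and SC5D without a filter (0.0524). FDFT1 passed with median-of-ratios (0.0144) and upper-quartile scaling (0.0243), with 1 TPM required in every library (0.0496) and with GC-adjusted and centred values (0.0277), and NSDHL with median-of-ratios scaling (0.0313) and GC-adjusted and centred values (0.026).

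Values that changed sign all belonged to members that did not pass the test in the deposited values. The GC-adjusted log2 fold changes, the same with the block, and then those with centring were -0.077 and -0.15 for MVD, -0.10 and -0.17 for FDPS, -0.081 and -0.16 for LSS, 0.16 and 0.090 for HSD17B7, -0.040 and -0.11 for SREBF2, -0.22 and -0.30 for SCAP, 0.18 and 0.10 for STARD4, -0.016 and -0.090 for ACLY, 0.12 and 0.050 for ELOVL6, and -0.015 and -0.089 for FADS2. With median-of-ratios scaling FDPS was at -0.032, SCAP at -0.062, INSIG2 at -0.053, ACLY at -0.018 and SCD at -0.0055, and with upper-quartile scaling SCAP was at -0.016 and INSIG2 at -0.013. Without niraparib replicate 2 PMVK was at 0.061, HSD17B7 at 0.079, INSIG2 at -0.038, FASN at 0.014 and ELOVL6 at 0.010. Without DMSO replicate 2 PMVK was at 0.035, HSD17B7 at 0.035 and INSIG2 at -0.12, and without niraparib replicate 1 FADS1 was at 0.011. Over the libraries left out, the lowest values were -0.20 for PMVK, -0.13 for HSD17B7 and -0.066 for FADS1. Each scaling divides a library by a single factor and so moves all genes together. The median of all genes tested moved from 0.072 to -0.018 with median-of-ratios and to 0.024 with upper-quartile scaling. The cause of the other sign changes was not tested.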
